A study of Mus musculus with 14 samples.

Results

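The genotype dependence of the exercise response was measured gene by gene in the mouse suprachiasmatic nucleus (SCN) as a difference of differences, the effect of scheduled voluntary exercise (SVE) in Vipr2-/- mice minus its effect in wild-type (WT) mice, on log2 normalized read counts. The genes described had at least 1 read in each of the 14 libraries and a mean normalized count of at least 50. This left 12351 members of the 18175 genes tested and the 55401 features in the deposited table. The rule kept out 1404 tested genes that reached the mean but stood at 0 in at least 1 library, and 647 genes read in each library with a lower mean. Pik3cg, with a mean of 50.17, lay just inside the limit and 4833413G10Rik, with 49.94, just outside it. Members took 98.7% to 99.2% of the reads of a library.

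The SCN was cut by laser from cresyl violet-stained sections 20 µm thick, and its total RNA was sequenced as paired ends. All mice were on a C57BL/6 background, adult (over 8 weeks old) and mostly male, and spent 14 days in 12 h of light and 12 h of dark before constant darkness. The Vipr2-/- SVE group (n = 3 libraries) and the WT SVE group (n = 4) ran free for 14 days and then had a running wheel for 6 h in every 24 h until drinking activity began at intervals of about 24 h on 6 to 7 consecutive days. Entrainment took 6 to 9 days in Vipr2-/- mice and 35 to 40 days in WT mice, so the genotypes also differ in the length of SVE. Mice under SVE were killed 2 h after the wheel became available, at schedule time 14. The Vipr2-/- nSVE group (n = 3) and the WT nSVE group (n = 4) stayed in constant darkness with no exercise schedule and were killed at circadian time 14. Mice that did not entrain to SVE and Vipr2-/- nSVE mice that were arrhythmic had been left out by the authors, so the remaining groups hold selected animals. The series text adds circadian time 14 for Vipr2-/- SVE and 24 for WT SVE mice. If so, exercise and circadian time cannot be told apart in the WT comparison, and the difference between genotypes carries the same mixture. Whether each library is a separate animal is not stated, and the p-values thus measure only the spread between these samples.

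Vipr2 encodes VPAC2, the receptor through which vasoactive intestinal peptide (VIP) keeps SCN neurons in step with one another. Within each SCN cell, CLOCK and BMAL1 switch on the Per, Cry and Nr1d1 genes through E-boxes; PER and CRY proteins shut that drive down, and the nuclear receptor REV-ERBα, the product of Nr1d1, represses Arntl (BMAL1). Without VPAC2 the cellular rhythms drift apart and behaviour in constant darkness becomes weak or irregular, and a daily exercise schedule is one of the non-photic cues that can restore order.

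Vipr2 itself (ENSMUSG00000011171.11, chr12:116077726-116146261, plus strand, GRCm38) had 90.9, 244 and 193 normalized counts in Vipr2-/- SVE libraries and 173, 144 and 218 in Vipr2-/- nSVE libraries. WT SVE libraries held 8736, 6792, 10031 and 7210.3 and WT nSVE libraries 6247, 6796, 7042 and 6538, so the labelled genotypes did not overlap. Libraries corresponded to 17709080 to 48794679 reads. The share of tested genes at 0 was 10.3% ± 6.17 in Vipr2-/- SVE, 14.5% ± 5.32 in Vipr2-/- nSVE (SD, n = 3 each), 3.21% ± 1.54 in WT SVE and 6.94% ± 1.66 in WT nSVE (n = 4 each). The rRNA-related gene CT010467.1 took 3.22% ± 0.518 of reads in Vipr2-/- SVE, 11.5% ± 7.75 in Vipr2-/- nSVE, 5.18% ± 5.21 in WT SVE and 15.03% ± 8.11 in WT nSVE. Both shares were lower under SVE in each genotype, and fits with either share as a covariate stand beside the counts of calls. The labels name no batch of preparation or sequencing.

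In a limma fit over all 14 libraries, with Benjamini-Hochberg adjustment over the 18175 genes, the exercise effect differed between genotypes at an adjusted p under 0.05 for 2 members, Tmem51 and Nr1d1. Both were lower in the interaction, that is, higher in WT SVE than in WT nSVE libraries, with no such difference detected in Vipr2-/- mice. Here and below, an exercise effect, a rise or a fall describes SVE against nSVE libraries. The limits on circadian time and length of SVE given above apply to each. The background was 4 calls among all genes tested, 0.022%, with 0.011% in each direction. At an unadjusted p under 0.05 there were 1447 members, or 11.7%, against 10.3% of tested genes. Of these, 643 were higher (background 4.87% of tested genes) and 804 lower (background 5.45%). The median standard error of a member was 0.336 in the interaction, 0.254 for SVE in Vipr2-/- mice and 0.22 for SVE in WT mice. An effect thus had to be larger to pass in the interaction than in the contrast of either genotype. The fit took 1 spread per gene from all groups together. Standard errors and intervals of the 2 genotypes therefore differ by library number and do not measure the spread within a genotype. On recovered whole reads, edgeR called the same 2 members and DESeq2 called 76 (29 higher, 47 lower), both included. Among all 18175 tested genes edgeR called 6 (4 higher, 2 lower) and DESeq2 173 (102 higher, 71 lower). In limma fits that left out 1 library, the count was 17 without Vipr2-/- SVE library 2, 5 without Vipr2-/- nSVE library 1 or library 2, 0 without WT SVE library 1, and 2 in the other 10 fits.

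Nr1d1 (ENSMUSG00000020889.11, chr11:98767932-98775333, minus strand) encodes REV-ERBα, a haem-binding repressor of the clock. It had 6246, 11809 and 7725 normalized counts in the Vipr2-/- SVE libraries and 6874, 6306 and 8263 in the Vipr2-/- nSVE libraries. WT libraries held 17562, 15004, 16319 and 17790 under SVE and 4523, 4948, 3622 and 4206 under nSVE. The Vipr2-/- groups overlapped and lay between the WT groups, which were far apart: each WT SVE library was above each Vipr2-/- library, and each WT nSVE library was below each. The exercise effect was 0.22 in Vipr2-/- mice (SE 0.18, adjusted p = 0.604) and 1.95 in WT mice (SE 0.16, adjusted p = 3.44e-05). Their difference was -1.73 (SE 0.24, 95% interval -2.25 to -1.21, adjusted p = 0.0128). Seen the other way, Nr1d1 in Vipr2-/- minus WT was -1.004 under SVE and 0.72 under nSVE on the log2 scale. The gene shares 1075 bases with the plus-strand gene Thra, a thyroid hormone receptor, and the labels do not say whether counting used strand, so reads in that stretch cannot be assigned with certainty. Thra had an interaction of -0.56 (adjusted p = 0.293) and an exercise effect of 0.47 in WT mice (adjusted p = 0.0194).

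Tmem51 (ENSMUSG00000040616.3, chr4:142030992-142084304, minus strand) encodes a transmembrane protein. Its counts were 827, 1143 and 1054 in Vipr2-/- SVE and 1390.2, 962 and 1044 in Vipr2-/- nSVE libraries. In WT libraries they were 1944, 1737, 1869 and 1775 under SVE and 709, 685, 668 and 629 under nSVE. As with Nr1d1, the Vipr2-/- groups overlapped and fell between WT groups that were tight and far apart. SVE went with -0.16 in Vipr2-/- mice (SE 0.17, adjusted p = 0.677) and with 1.44 in WT mice (SE 0.14, adjusted p = 0.000275). The difference was -1.61 (SE 0.22, 95% interval -2.07 to -1.14, adjusted p = 0.0117), from Vipr2-/- minus WT gaps of -0.87 under SVE and 0.73 under nSVE. Tmem51 shares 333 bases with the antisense transcript Tmem51os1, which had 0 to 70.1 normalized counts per library, far below Tmem51. With the log2 share of CT010467.1 as a covariate the interaction was -1.71 for Nr1d1 and -1.60 for Tmem51 (adjusted p = 0.0203 each), and with the percentage of genes at 0 in its place it was -1.73 (adjusted p = 0.0199) and -1.61 (adjusted p = 0.0155). Leaving out 1 library at a time kept both genes called in 13 of 14 fits; without WT SVE library 1 the adjusted p of each was 0.0566. With the replicate number as a block, both had an adjusted p of 0.0957 and neither was called. Whether the replicate numbers mark a pairing is not known.

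**Figure D1:**
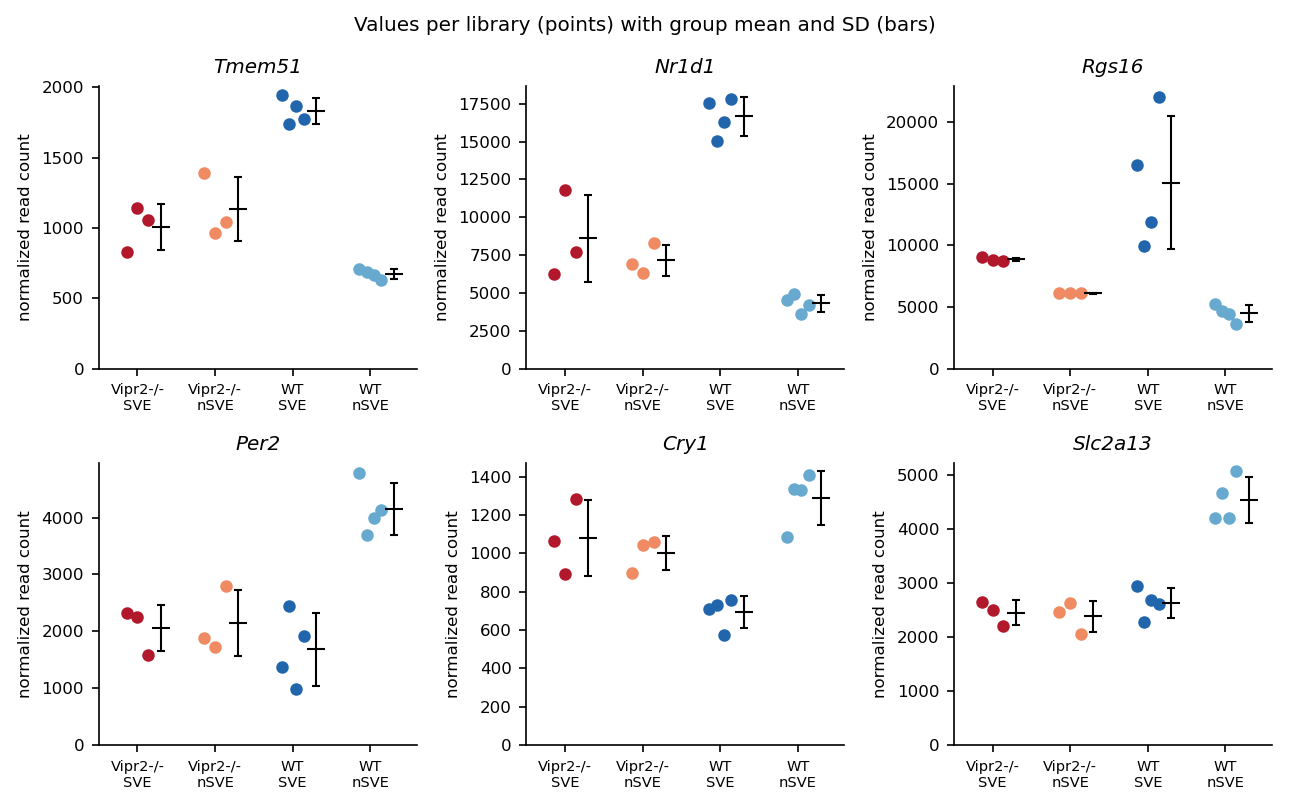
Normalized read count (vertical axis, linear from 0) of 6 genes in each library (points) of the 4 groups, with the group mean and SD as bars. For Tmem51 and Nr1d1 the WT SVE and WT nSVE libraries stand on either side of all Vipr2-/- libraries; for Per2 and Slc2a13 it is WT nSVE that stands apart.

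The RefSeq promoter windows of the called genes and of Cry1 are shown because Nr1d1 and Cry1 are read out through E-boxes in the textbook clock, whereas Tmem51 is not a clock component. Each window runs from 250 bases before to 50 after the annotated start (GRCm38.p6, minus strand, 5′ to 3′): Nr1d1 at chr11:98775328-98775627, Tmem51 at chr4:142084255-142084554 and Cry1 at chr10:85185005-85185304. Capitals mark matches to the motifs searched on both strands.
Nr1d1: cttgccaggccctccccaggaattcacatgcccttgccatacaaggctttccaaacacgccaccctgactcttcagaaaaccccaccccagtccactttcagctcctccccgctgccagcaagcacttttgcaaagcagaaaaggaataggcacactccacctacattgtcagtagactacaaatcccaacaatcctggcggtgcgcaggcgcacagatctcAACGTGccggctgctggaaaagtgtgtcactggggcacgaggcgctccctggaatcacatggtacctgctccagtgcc
Tmem51: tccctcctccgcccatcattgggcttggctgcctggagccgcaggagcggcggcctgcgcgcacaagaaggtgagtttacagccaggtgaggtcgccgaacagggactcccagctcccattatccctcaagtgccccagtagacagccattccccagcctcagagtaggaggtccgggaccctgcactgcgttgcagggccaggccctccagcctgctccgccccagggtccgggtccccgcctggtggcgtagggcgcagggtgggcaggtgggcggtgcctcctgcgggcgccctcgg
Cry1: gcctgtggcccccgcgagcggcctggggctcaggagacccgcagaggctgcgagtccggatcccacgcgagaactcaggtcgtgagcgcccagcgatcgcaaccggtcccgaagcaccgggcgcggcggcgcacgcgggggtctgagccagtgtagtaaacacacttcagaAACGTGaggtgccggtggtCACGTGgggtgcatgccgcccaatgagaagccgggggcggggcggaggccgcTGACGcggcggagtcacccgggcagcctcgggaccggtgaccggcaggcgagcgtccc
The motifs were the E-box CACGTG, held by 7.15% of all 32851 windows, its variant CACGTT (4.68%), the D-box TTATGTAA (0.938%), the full cAMP response element TGACGTCA (1.79%), its shorter form TGACG (20.8%), which also lies inside the full one, and the nuclear receptor motif AGGTCA (16.3%). The Nr1d1 window held CACGTT, on the opposite strand, 28 bases before the start. Cry1 held the E-box 60 bases, CACGTT 79 bases and TGACG 8 bases before the start. None of these letters occurred in the Tmem51 window. A match is a description of the letters only.

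The 8 other members with the smallest p among those with a lower interaction did not pass the adjustment (adjusted p 0.227 to 0.293). All 10 in this direction, the called genes included, had higher values in WT SVE than in WT nSVE with no overlap, while 2 of 10 had Vipr2-/- groups that did not overlap. Among tested genes, groups did not overlap for 14.7% in WT and 9.99% in Vipr2-/- mice, but these members were picked on the same values. Gstm7, a glutathione transferase, had 1739.6, 2519.8 and 2344 in Vipr2-/- SVE and 2541, 2336 and 2809 in Vipr2-/- nSVE, against 3272, 2751, 3469 and 2813 in WT SVE and 1819, 1593, 1763 and 1965 in WT nSVE. Its WT effect of 0.78 passed on its own (adjusted p = 0.0119), its Vipr2-/- effect was -0.23 and the interaction -1.01 (adjusted p = 0.227). Crocc, which encodes the ciliary rootlet protein rootletin, had 436, 725 and 486 in Vipr2-/- SVE and 672, 559 and 631 in Vipr2-/- nSVE, against 1196, 737, 1016 and 1159 in WT SVE and 342, 253, 459 and 369 in WT nSVE. It changed in WT mice (1.53, adjusted p = 0.00607); the Vipr2-/- effect was -0.21 and the interaction -1.74 (adjusted p = 0.227). In Crocc each WT SVE library was above all others, in Gstm7 the WT SVE range met the top of Vipr2-/- nSVE, and in both genes WT nSVE met the lower end of Vipr2-/- SVE.

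Gapdh, a glycolytic enzyme often used as a reference transcript, had 11873, 15538 and 9917 in Vipr2-/- SVE and 17346, 14675 and 24324 in Vipr2-/- nSVE, against 15002, 13714, 15219 and 20061 in WT SVE and 11160, 11273, 9424 and 8937 in WT nSVE. Its exercise effects pointed in opposite directions, -0.59 in Vipr2-/- mice (adjusted p = 0.229) and 0.64 in WT mice (adjusted p = 0.0767), and neither passed. The interaction was -1.23 (95% interval -1.77 to -0.68, adjusted p = 0.262). Gpc3, a cell-surface heparan sulphate proteoglycan, had 2492 to 3110.4 in Vipr2-/- SVE and 2889.6 to 3556 in Vipr2-/- nSVE, against 1854 to 2889 in WT SVE and 1147 to 1416 in WT nSVE. It rose in WT mice (0.80, adjusted p = 0.0156) to levels that met the Vipr2-/- range, with an interaction of -1.01 (adjusted p = 0.269). Plekha7, a protein of adherens junctions, had an interaction of -1.998, and Fah, the last enzyme of tyrosine breakdown, one of -1.11 (adjusted p = 0.293 each). Both rose in WT mice, by 1.35 (adjusted p = 0.0324) and 1.05 (adjusted p = 0.0105). Maz, a zinc finger transcription factor, and Smarcd3, a subunit of the SWI/SNF chromatin remodeller, were the genes whose Vipr2-/- groups did not overlap. Maz was -0.33 in Vipr2-/- and 0.41 in WT mice, and Smarcd3 -0.31 and 0.46; none of these effects passed the adjustment.

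**Figure D2:**
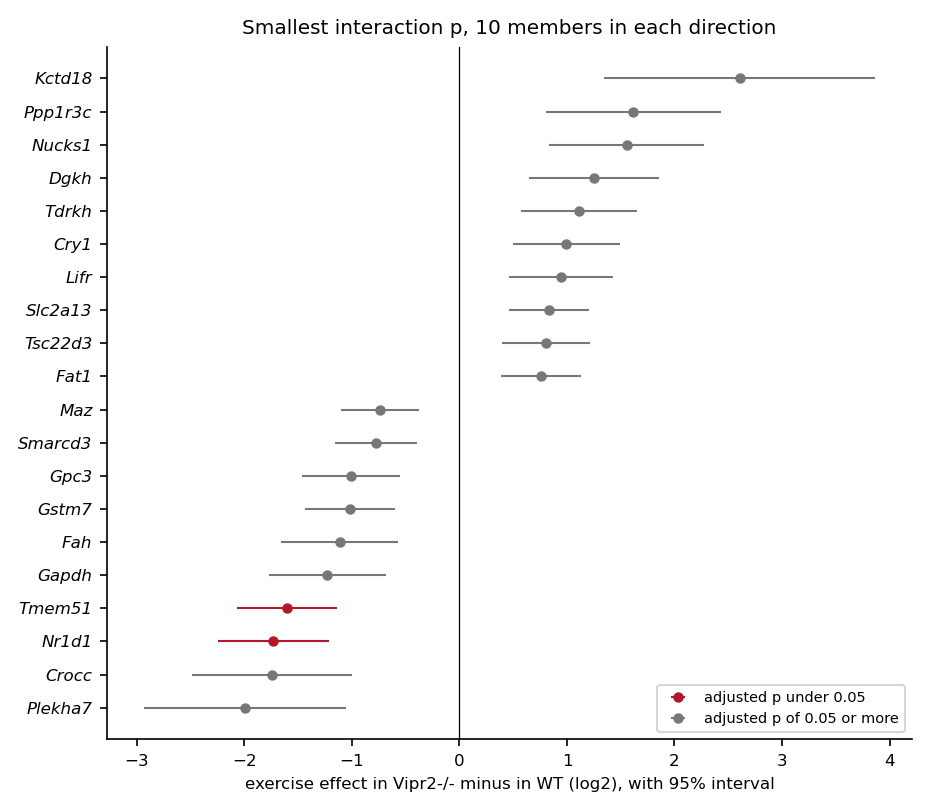
Exercise effect in Vipr2-/- minus that in WT (log2, horizontal axis; bars are 95% intervals) for the 10 members with the smallest p in each direction. Tmem51 and Nr1d1 (red) are the 2 members with an adjusted p under 0.05; the other 18 had adjusted p-values of 0.227 to 0.293.

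No member with a higher interaction passed (adjusted p 0.262 to 0.293 for the 10 with the smallest p). All 10 were lower in WT SVE than in WT nSVE on average and higher in Vipr2-/- SVE than in Vipr2-/- nSVE. In 7 of the 10 the WT groups did not overlap and in 5 the Vipr2-/- groups did not (14.7% and 9.99% of tested genes). These 10 were also picked on the same values, which favours opposite signs and groups that stand apart. Slc2a13, a proton-coupled myo-inositol transporter, had 2647, 2494 and 2196 in Vipr2-/- SVE and 2452, 2623 and 2059 in Vipr2-/- nSVE, against 2940.1, 2266, 2688 and 2609 in WT SVE and 4205, 4668, 4196 and 5075 in WT nSVE. WT nSVE stood above the other 3 groups, which overlapped. The exercise effect was 0.04 in Vipr2-/- mice and -0.79 in WT mice (adjusted p = 0.00607), with an interaction of 0.83 (adjusted p = 0.262).

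Tsc22d3 (GILZ), a glucocorticoid-induced leucine zipper protein, and Lifr, the receptor of leukaemia inhibitory factor, had a different layout. Tsc22d3 ranged from 4645 to 5817 in Vipr2-/- SVE and 4445 to 5189 in Vipr2-/- nSVE, against 2129 to 2959 in WT SVE and 3622 to 5004 in WT nSVE. Lifr ranged from 865 to 1011 in Vipr2-/- SVE and 751 to 949 in Vipr2-/- nSVE, against 487 to 623 in WT SVE and 818 to 1044 in WT nSVE. In both, WT SVE lay below the other 3 groups, which overlapped. They fell in WT mice, with effects of -0.71 and -0.80 (adjusted p = 0.0168 and 0.0194), with interactions of 0.81 and 0.95 (adjusted p = 0.293 each). Ppp1r3c, which targets protein phosphatase 1 to glycogen, had 0.65 in Vipr2-/- and -0.97 in WT mice (adjusted p = 0.074).

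In 5 genes of this direction the Vipr2-/- SVE libraries lay above the Vipr2-/- nSVE libraries without overlap. Nucks1, a chromatin-associated nuclear protein, had 2496, 2018 and 2218 in Vipr2-/- SVE and 930.2, 947 and 1541 in Vipr2-/- nSVE, against 869.8, 1794, 2017 and 1718 in WT SVE and 2286, 2394, 2190.2 and 2028 in WT nSVE. Vipr2-/- SVE was above Vipr2-/- nSVE without overlap, and WT SVE below WT nSVE without overlap; the effects were 1.01 and -0.54, with an interaction of 1.55 (adjusted p = 0.285). Tdrkh, a tudor domain protein, crossed in the same manner, with 723 to 1144 in Vipr2-/- SVE and 563 to 588 in Vipr2-/- nSVE, against 609 to 778 in WT SVE and 790.1 to 965 in WT nSVE. Dgkh (diacylglycerol kinase eta) had effects of 0.64 in Vipr2-/- and -0.61 in WT mice, and the atypical cadherin Fat1 0.53 and -0.23. Kctd18 had the widest interval of these: its counts were 211, 143 and 232 in Vipr2-/- SVE and 69.7, 36.8 and 50.5 in Vipr2-/- nSVE, against 125 to 186 in WT SVE and 161 to 307 in WT nSVE, and its interaction was 2.61 (95% interval 1.34 to 3.87). Vipr2-/- nSVE was also the group with the largest share of genes at 0. With that share as a covariate the interaction was 2.62 for Kctd18 and 1.58 for Nucks1. The share itself differs between the groups, and whether it had a part in these values was not tested.

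Of 22 core clock genes, 20 were members. In the interaction 13 of the 20 lay above 0 and 7 below, with a median of 0.22 against -0.00 over all members. Only Nr1d1 was called, and 3 higher and 2 lower reached an unadjusted p under 0.05 (background 4.87% and 5.45% of tested genes). The exercise effect had a median of 0.07 in Vipr2-/- mice, where no clock gene passed. It was -0.14 in WT mice, where Nr1d1 rose and Per2 and Cry1 fell (background 1.02% called higher and 0.259% lower). Per2, a PER repressor, had 2317, 2251 and 1590.1 in Vipr2-/- SVE and 1889.5, 1729.8 and 2802 in Vipr2-/- nSVE, against 1376, 2452, 980.2 and 1919.9 in WT SVE and 4778, 3692, 3996 and 4124 in WT nSVE. The Vipr2-/- groups overlapped each other and overlapped WT SVE, while WT nSVE lay above them all. Per2 was -0.05 in Vipr2-/- mice (95% interval -0.62 to 0.53) and -1.38 in WT mice (adjusted p = 0.0135); the interaction was 1.33 (95% interval 0.57 to 2.09, adjusted p = 0.341).

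Cry1, the cryptochrome that sustains late-phase repression, had 1067, 891 and 1286 in Vipr2-/- SVE and 899.7, 1045 and 1058 in Vipr2-/- nSVE, against 711, 732, 573 and 757 in WT SVE and 1084, 1337, 1332 and 1407 in WT nSVE. WT SVE lay below all other groups. Its effects were 0.10 in Vipr2-/- and -0.90 in WT mice (adjusted p = 0.0136), with an interaction of 0.99 (adjusted p = 0.293). Per1 was 0.18 and 0.50 (interaction -0.32, 95% interval -1.21 to 0.58), and Arntl, which encodes BMAL1, 0.12 and -0.10 (interaction 0.22, 95% interval -0.39 to 0.84), and neither passed in any of the 3 contrasts. Per3, Cry2, Nr1d2 and Rora, shown in the plot of clock genes, had interactions of 0.54, 0.24, 0.33 and 0.38. Of the PAR bZIP output factors, Dbp had 4415, 5968 and 4178 in Vipr2-/- SVE and 8180.4, 5109.7 and 4952 in Vipr2-/- nSVE, against 4987, 4826, 3864 and 9163 in WT SVE and 3216, 3452, 3105 and 2988 in WT nSVE. WT SVE lay above WT nSVE without overlap, and the Vipr2-/- groups overlapped; the interaction was -1.07 (adjusted p = 0.383). Hlf went the other way, with 0.03 in Vipr2-/- and -0.39 in WT mice and an interaction of 0.43 (adjusted p = 0.461).

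**Figure D3:**
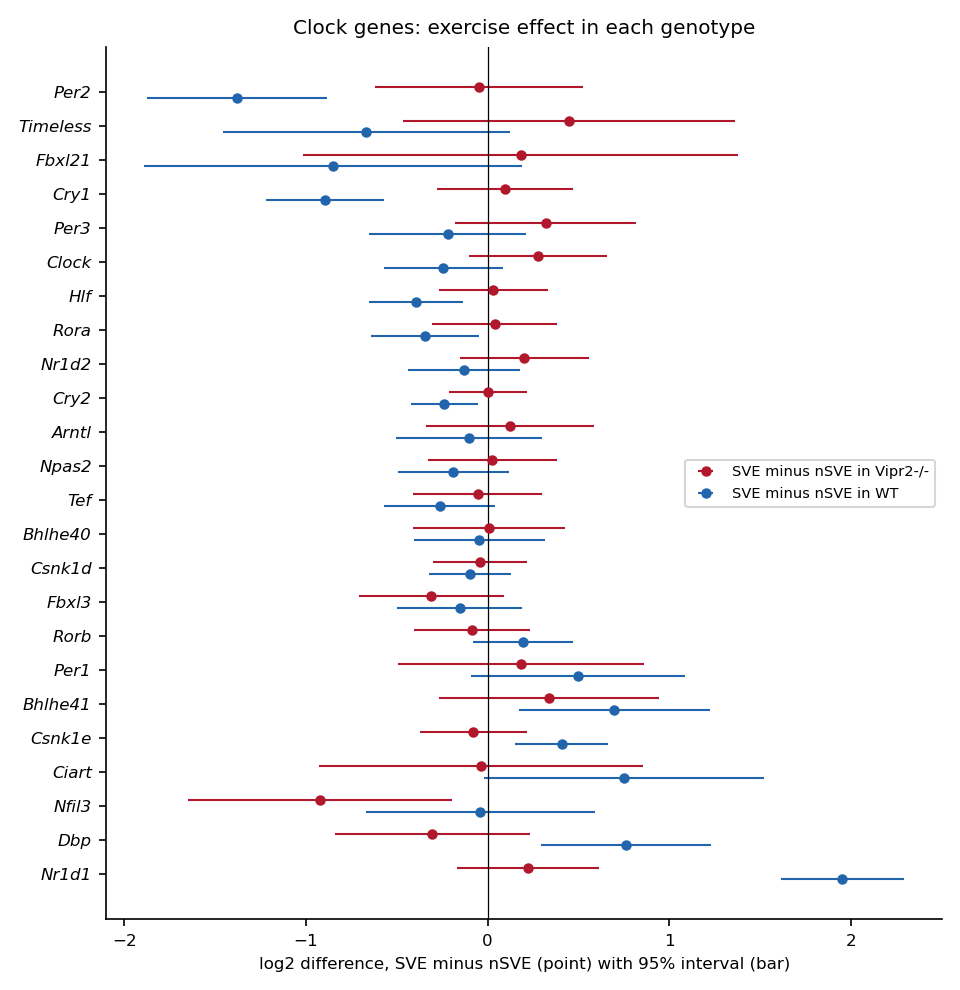
Exercise effect (SVE minus nSVE, log2; bars are 95% intervals) in Vipr2-/- (red) and WT mice (blue) for 24 clock and clock output genes, ordered by the interaction. The intervals use 1 spread per gene, shared by both genotypes. Intervals in Vipr2-/- mice include 0 for all but Nfil3, whose effect did not pass the adjustment, while Nr1d1 at 1.95, Per2 at -1.38 and Cry1 at -0.90 lie away from 0 in WT mice.

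Between SVE and nSVE, 6 members differed in Vipr2-/- mice (3 higher, 3 lower). The background was 21 of 18175 genes, 0.116%, with 0.099% higher and 0.0165% lower. In WT mice 217 members differed (172 higher, 45 lower), with a background of 233 genes, 1.28% (1.02% higher and 0.259% lower). These counts say little of a difference between genotypes, and only the interaction tests it. WT groups hold 4 libraries and Vipr2-/- groups 3. The share of genes at 0 also varied more among Vipr2-/- libraries (SD 6.17 and 5.32) than among WT libraries (SD 1.54 and 1.66). With the libraries of 1 genotype alone, limma called 0 members in Vipr2-/- and 1104 in WT mice. How much each of these had a part in the counts was not tested. Among the 217 members changed in WT mice, 112 had an interaction p under 0.05 and 2 passed the adjustment; they were picked on their WT values, which enter the interaction too. The 172 that rose in WT mice had a median effect of 0.22 in Vipr2-/- mice and 0.75 in WT mice, and 140 of them lay above 0 in Vipr2-/- mice. The 45 that fell in WT mice had medians of -0.33 in Vipr2-/- mice and -0.68 in WT mice, and 36 lay below 0 in Vipr2-/- mice. The same sign in both genotypes was seen for 81.1% of the 217 and for 52.4% of all members. Over the 12351 members, which are not independent of each other, the effects in Vipr2-/- and WT mice had a Pearson r of 0.107 and a Spearman rho of 0.0861; the genotypes share no library in this comparison. The WT count changed with covariates and with single libraries. With the log2 share of CT010467.1 as covariate it was 3, and with the percentage of genes at 0 in that role 72. With 1 library left out it lay between 29 (without WT SVE library 1) and 409 (without Vipr2-/- nSVE library 3). Both shares were themselves lower under SVE, so these covariates overlap with the exercise contrast. What the WT calls rest on was not tested.

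Several WT responders had an effect of the same sign in Vipr2-/- mice; they were chosen after their values were seen. Akap8l, a nuclear anchoring protein, was 1.31 in Vipr2-/- and 1.49 in WT mice, Leng8 1.26 and 1.45, and the long noncoding RNA Snhg11 1.01 and 1.11. The interactions of these 3 were -0.18 (SE 0.33) for Akap8l, -0.19 (SE 0.39) for Leng8 and -0.10 (SE 0.35) for Snhg11. Nppc, the precursor of C-type natriuretic peptide, was 1.76 in Vipr2-/- and 2.39 in WT mice, with an interaction of -0.63 (SE 0.63). None of these 4 Vipr2-/- effects passed the adjustment. Ankrd63 was -0.13 in Vipr2-/- and 1.98 in WT mice and the transcriptional repressor Erf -0.16 and 1.30. Neither passed in the limma interaction, while both did in the DESeq2 Wald test (adjusted p = 0.00866 and 0.0214). Rgs16, a regulator of G protein signalling that speeds the shutdown of Gi signalling in the SCN, had 9031, 8770.3 and 8750.0 in Vipr2-/- SVE and 6105, 6099.5 and 6166 in Vipr2-/- nSVE, against 16497, 9969.8, 11909 and 22013 in WT SVE and 5249.8, 4631, 4459 and 3585 in WT nSVE. SVE libraries were above nSVE libraries without overlap in both genotypes, and WT SVE was the highest group. The effect was 0.53 in Vipr2-/- mice (adjusted p = 0.304) and 1.70 in WT mice (adjusted p = 0.000578), and the interaction -1.17 (95% interval -1.76 to -0.57, adjusted p = 0.293).

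**Figure D4:**
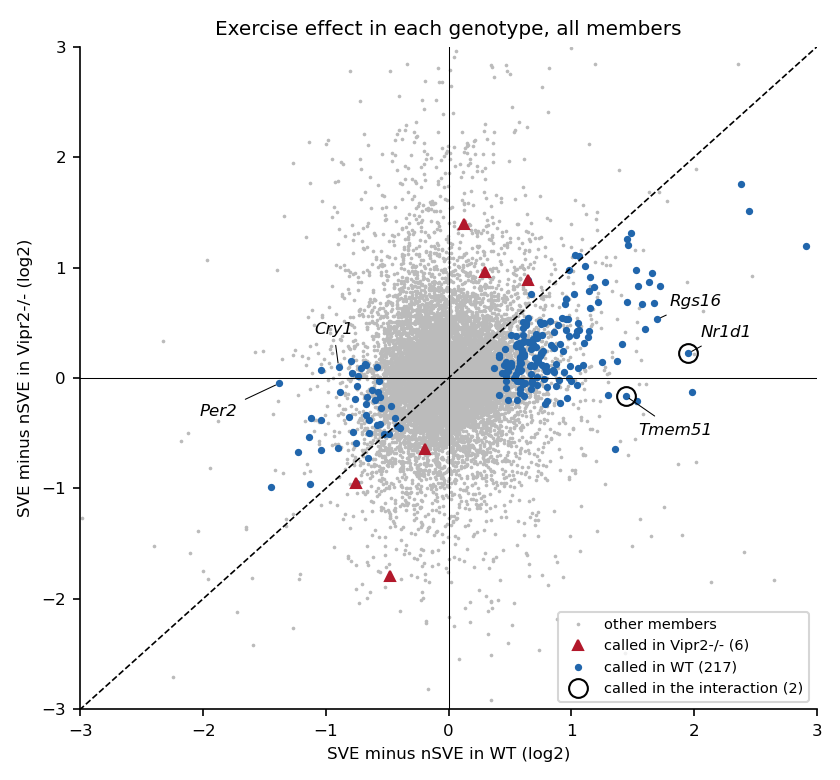
Exercise effect (SVE minus nSVE, log2) in Vipr2-/- mice (vertical axis) against that in WT mice (horizontal axis) for each member (grey), with members called in Vipr2-/- mice (6, red triangles), in WT mice (217, blue) and in the interaction (2, circles). Of the 217, 208 had the larger effect in WT mice and 176 the same sign in both, and so lie mostly between the horizontal axis and the dashed line of equal effects; 17 members lie beyond the axes.

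The 6 members changed in Vipr2-/- mice were Banp, Snrnp70, Ppp4r1, Ndufa4, Ndufb11 and 1 gene with a predicted-gene symbol. Banp, a nuclear matrix-binding protein, had 1361, 1768 and 1747 in Vipr2-/- SVE and 882, 755 and 850.4 in Vipr2-/- nSVE, against 1678, 1757, 2016 and 1861 in WT SVE and 1566, 1423, 1597 and 1372 in WT nSVE. Vipr2-/- nSVE was the low group; the effect was 0.96 in Vipr2-/- mice (adjusted p = 0.0124) and 0.29 in WT mice (adjusted p = 0.321), with an interaction of 0.67 (adjusted p = 0.357). Snrnp70, the U1-70K protein of the U1 spliceosomal particle, rose in both genotypes, by 0.89 in Vipr2-/- mice (adjusted p = 0.0476) and 0.65 in WT mice (adjusted p = 0.0335). Ndufa4, a subunit of respiratory complex IV, fell in both: it had 3261, 2392 and 2298 in Vipr2-/- SVE and 5123, 5444 and 4632 in Vipr2-/- nSVE, against 2372, 2713, 2251 and 2065 in WT SVE and 3888, 4172, 4099 and 3615 in WT nSVE. Its effects were -0.95 (adjusted p = 0.0124) and -0.75 (adjusted p = 0.0105), and the interaction was -0.20 (95% interval -0.59 to 0.20). Ndufb11 of complex I was -0.65 in Vipr2-/- mice (adjusted p = 0.0476) and -0.19 in WT mice. Ppp4r1, a regulatory subunit of protein phosphatase 4, was 1.39 in Vipr2-/- mice (adjusted p = 0.0476) and 0.12 in WT mice, with an interaction of 1.27 (adjusted p = 0.318). The Vipr2-/- count was 0 with the rRNA-related share as covariate, 2 with the percentage of genes at 0 in that role and 2 with edgeR, and between 2 and 88 with 1 library left out (88 without Vipr2-/- nSVE library 1).

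The libraries of SVE and nSVE did not overlap in either genotype, in opposite directions, for 43 members (0.348%): 22 were higher in Vipr2-/- SVE and lower in WT SVE, and 21 the reverse. For 217 members (1.76%) they did not overlap in the same direction. Single-genotype shares of non-overlap were 11.4% of members in Vipr2-/- and 18.6% in WT mice, against 9.99% and 14.7% of tested genes. The Vipr2-/- and WT shares cannot be compared, as groups of 3 libraries stand apart by chance more often than groups of 4. The 2 joint shares were counted over members only, so no background over all tested genes stands beside them. Beside Nucks1, Tdrkh, Maz and Smarcd3, the opposite set held, among others, Zeb1, a zinc finger repressor (0.28 in Vipr2-/- and -0.31 in WT mice), Gpt2, mitochondrial alanine aminotransferase (0.52 and -0.48), Stard4, a cholesterol transfer protein (0.66 and -0.65), and Abca1, the cholesterol exporter (0.47 and -0.42). These 4 were chosen after their values were seen. None of the 43 passed in the interaction; the lowest adjusted p was 0.285.

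Of 23 SCN neuropeptide genes 18 were members, and 14 of them lay below 0 in the interaction (median -0.29, against -0.00 over all members). None passed. Pcsk1n and Cck, both lower, reached an unadjusted p under 0.05 (background 5.45% of tested genes). Pcsk1n (proSAAS) had 38009 to 73282 in Vipr2-/- SVE and 52516 to 60437 in Vipr2-/- nSVE, against 63656 to 91683 in WT SVE and 38154 to 46602 in WT nSVE. It rose in WT mice (0.88, adjusted p = 0.0217), was -0.08 in Vipr2-/- mice, and its interaction was -0.95 (adjusted p = 0.342). Cck (cholecystokinin) had an interaction of -0.65 (adjusted p = 0.431). Vip, the ligand of the deleted receptor, had 2428, 3977 and 3133 in Vipr2-/- SVE and 3772, 5027 and 4592 in Vipr2-/- nSVE, against 5554, 6594, 5934 and 4687 in WT SVE and 7507, 9848, 9398 and 7196 in WT nSVE. Its effects were close, -0.51 in Vipr2-/- (adjusted p = 0.251) and -0.57 in WT mice (adjusted p = 0.0915), and the interaction of 0.07 had an interval of -0.44 to 0.57. Avp (vasopressin) had an interaction of -0.49 (interval -1.18 to 0.21) and Nms (neuromedin S), which rose in WT mice by 0.67 (adjusted p = 0.0378), one of -0.35.

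Of 16 SCN transcription factor genes 14 were members, with 10 below 0 (median -0.31) and none called. An unadjusted p under 0.05 was reached by 4, all lower (background 5.45% of tested genes). In WT mice 11 of the 14 lay above 0 (median 0.36), and Sox2 and Six3 passed (background 1.02% called higher). In Vipr2-/- mice 10 lay above 0 (median 0.09) and none passed. Six3, a homeobox factor of the SCN, had 10023, 14497 and 9358 in Vipr2-/- SVE and 10549, 10146 and 10868 in Vipr2-/- nSVE, against 15815, 16821, 14140 and 16580 in WT SVE and 9760.4, 12052, 10537 and 9697 in WT nSVE. WT SVE stood high, with 1 Vipr2-/- SVE library reaching its lower end. The WT effect was 0.59 (adjusted p = 0.0283), the Vipr2-/- effect 0.08, and the interaction -0.52 (adjusted p = 0.417). Sox2, a factor of neural progenitors and SCN neurons, had 0.69 in WT (adjusted p = 0.0226) and 0.11 in Vipr2-/- mice, with an interaction of -0.58; Nr2f2 had an interaction of -0.58. Lhx1 and Six6, regulators of SCN identity, had WT effects of 0.57 and 0.54 (adjusted p = 0.0613 and 0.0964) and interactions of -0.45 and -0.34. In bulk RNA, fewer cells of a type and less RNA per cell cannot be told apart.

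Neuron markers moved with these lists: 11 of 12 lay below 0 in the interaction (median -0.31), with Nefh at -0.75 (adjusted p = 0.293), Tubb3 at -0.63 and Eno2 at -0.33, and none called. Their summed level was 87628 to 92893 normalized counts in Vipr2-/- SVE, 89127 to 108131 in Vipr2-/- nSVE, 96414 to 110266 in WT SVE and 91849 to 94377 in WT nSVE, so WT SVE and WT nSVE did not overlap. None of the 12 stood at 0 in a whole group. Whether neuron content had a part in the peptide and transcription factor values was not tested.

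Of the other cell type lists, oligodendrocyte markers had 10 of 16 members above 0 (median 0.16). Mobp, a myelin protein gene, had 3865, 3518 and 3164 in Vipr2-/- SVE and 3225, 3179 and 3242 in Vipr2-/- nSVE, against 5007, 7314, 6548 and 7014 in WT SVE and 12903, 9973, 9496 and 9148 in WT nSVE. It fell in WT mice (-0.68, adjusted p = 0.0194), was 0.12 in Vipr2-/- mice and had an interaction of 0.81 (adjusted p = 0.293); Mal, another myelin gene, had an interaction of 0.79. The other 6 lay below 0, among them the lineage transcription factors Olig2 at -1.02 (adjusted p = 0.447) and Olig1 at -0.57 (adjusted p = 0.452). The summed oligodendrocyte markers were 75254 to 113091 in Vipr2-/- SVE, 80758 to 97973 in Vipr2-/- nSVE, 64766 to 89833 in WT SVE and 91547 to 122486 in WT nSVE, so the WT groups did not overlap here either. Astrocyte markers had 10 of 16 above 0 (median 0.23), with sums of 204585 to 212951, 198257 to 219366, 182820 to 204221 and 171321 to 197656 in the same order of groups. Microglial markers had 3 of 11 above 0 (median -0.07) and endothelial and mural markers 7 of 12 (median 0.16). The 4 globin genes had median exercise effects of -1.004 in Vipr2-/- and -0.86 in WT mice. Hbb-bs and Hbb-bt fell in WT mice (background 0.259% called lower). Ependymal and choroid plexus markers (3 members) and markers of neighbouring hypothalamic neurons (5 members) had medians of -0.39 and 0.06, and the neighbour markers Kiss1 and Pmch stood at 0 in all 14 libraries. No cell type marker among the members passed in the interaction.

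Channel and receptor lists were split. Of 18 potassium channel members 15 lay above 0 in the interaction (median 0.15). Kcnc2, a fast Kv3 channel subunit of SCN neurons, had 2161 to 2870.4 in Vipr2-/- SVE and 1642 to 2219 in Vipr2-/- nSVE, against 2319.6 to 2797 in WT SVE and 3212 to 3301 in WT nSVE, with an interaction of 0.71 (adjusted p = 0.293). Kcna2 had 0.57. Calcium, sodium, leak and HCN channels had 9 of 20 above 0 (median -0.11), with Scn2a at 0.57, Cacna1e at 0.48 and the IP3 receptor Itpr1 at 0.64. Glutamate receptor and scaffold genes had 12 of 26 above 0 (median -0.10). Shank1, a postsynaptic scaffold, had 8748, 10688 and 7067 in Vipr2-/- SVE and 9248, 8125 and 8958 in Vipr2-/- nSVE, against 14962, 17432, 12898 and 17470 in WT SVE and 9587, 9372, 8767 and 8670.0 in WT nSVE. WT SVE stood above all other groups; the WT effect was 0.78 (adjusted p = 0.0105), the Vipr2-/- effect -0.01 and the interaction -0.79 (adjusted p = 0.293). Grin2a and Kcna1, with interactions of 3.23 and 2.80, had 1 Vipr2-/- nSVE library near the limit of detection, at 3.37 normalized counts for each gene. GABA genes had 7 of 19 above 0 (median -0.05) and synaptic vesicle genes 8 of 23 (median -0.14), with the active zone protein Pclo at 0.65 and complexin 1 (Cplx1) at -0.39 among the vesicle genes.

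Signalling and stress lists held no call. Immediate-early genes, which report recent neuronal activity, had 11 of 21 above 0 (median 0.05), and were above 0 for 17 in Vipr2-/- mice and for 15 in WT mice. Fos had 1143, 1734 and 855 in Vipr2-/- SVE and 419, 1219.6 and 1145 in Vipr2-/- nSVE, against 1669, 2433, 2836 and 3257 in WT SVE and 1326, 8106, 587 and 562 in WT nSVE, where library 2 stood far above the others. The Fos interaction was -0.34 with an interval of -2.38 to 1.70, and its sign turned under other settings. Npas4, a calcium-dependent activity gene, rose in WT mice (1.63, adjusted p = 0.0302) and was 0.87 in Vipr2-/- mice, with an interaction of -0.76 (interval -1.87 to 0.35). Genes of cAMP and CREB signalling had 12 of 29 above 0 (median -0.14), with Sik1, a CREB-induced kinase that limits clock resetting, at -0.84 (adjusted p = 0.432). MAPK genes had 7 of 15 (median -0.01), with the kinase Braf at 0.68. Glucocorticoid receptors and targets had 12 of 16 above 0 (median 0.33), with Tsc22d3 given above, Sgk1 at 1.496 (adjusted p = 0.381) and Nfkbia at 0.79, while Fkbp5, also a target, lay below 0 at -0.84. Heat shock genes had 16 of 22 above 0 (median 0.18) and the glycolysis list 8 of 21 (median -0.16).

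The exercise effects of cytosolic ribosomal protein, proteasome and nuclear-encoded respiratory chain genes lay mostly below 0 in both genotypes. Of 84 cytosolic ribosomal protein genes, 7 lay above 0 in Vipr2-/- mice (median -0.37, none called) and 5 in WT mice (median -0.38, 7 called lower, against a background of 0.259% called lower), and the interaction had 43 above 0 and 41 below with a median of 0.01. The share of CT010467.1, given above, was also lower under SVE in both genotypes. With its log2 as a covariate the ribosomal medians were -0.40 in Vipr2-/- and -0.35 in WT mice and none was called, and with the percentage of genes at 0 they were -0.35 and -0.37 with 3 called lower in WT mice. Proteasome subunits had medians of -0.29 in Vipr2-/- and -0.28 in WT mice, and of 0.10 in the interaction, with 22 of 35 above 0. Nuclear-encoded respiratory chain genes had medians of -0.33 and -0.21; 26 of 80 lay above 0 in the interaction (median -0.12), with Ndufb11 at -0.45 and the ATP synthase subunits Atp5d and Atp5e at -0.50 and -0.66. The 12 protein genes of the mitochondrial genome did not share this sign, with 7 above 0 in Vipr2-/- mice (median 0.09) and 6 in WT mice (median -0.00), and 8 in the interaction (median 0.11). Mitochondrial ribosomal protein genes had 29 of 76 above 0 (median -0.11) and SR and hnRNP splicing factors 23 of 30 (median 0.21), with Hnrnph1 at 0.57 and Srsf10 at 0.67. Ribosomal protein genes have many near-identical pseudogenes, so their counts are uncertain where reads could be split. Over the 37 lists the interaction medians ran from -0.39 to 0.33, and Nr1d1 was the 1 member on a list that passed.

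**Figure D5:**
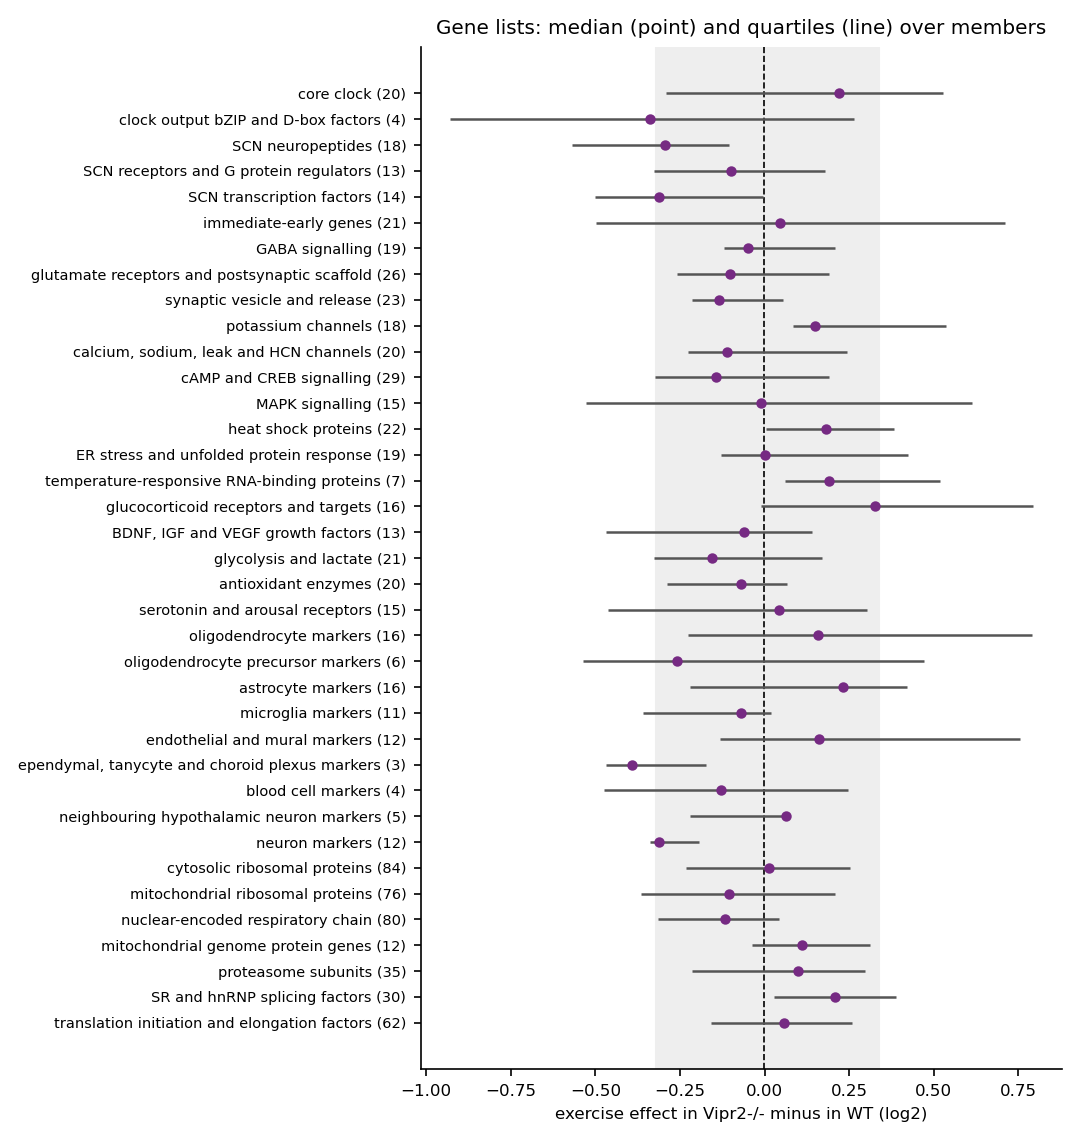
Exercise effect in Vipr2-/- minus that in WT (log2, horizontal axis) for each gene list: points are medians and lines quartiles over its members, whose number is in brackets; the dashed line and grey band are the median and quartiles of all members. The medians of 35 of the 37 lists lie inside the grey band; those of the ependymal markers and the clock output factors lie just below it.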

How the data were processed

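The authors deposited 1 value per gene and library, a signal made by dividing gene counts by a DESeq2 size factor per library; the submitters' processing notes list Trimmomatic, FastQC, HISAT2 and StringTie, without versions, and the series text gives their use for trimming, alignment and counting. The series text names GRCm38 and the notes GRCm39. Of 55401 features, 54349 have their identifier and identical coordinates in GENCODE M21 (GRCm38), so GRCm38 is used. Groups came from the sample titles. Whole reads were recovered from each value within 0.001 reads (100% of values), which gave the depths; intervals cover the spread between libraries and no counting error was modelled.

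A gene was tested if 3 or more libraries had a value of 10 or more (18175 genes). Values were transformed as log2(value + 1). From all 14 libraries, limma 3.58.1 in R 4.3.3, with the mean-variance trend switched on, estimated 1 mean for each group and 1 spread per gene. Fold changes are on that scale. The contrasts were SVE minus nSVE in Vipr2-/- mice, the same in WT mice, and the first minus the second, each with moderated tests, two-sided, and Benjamini-Hochberg adjustment over all tested genes; a call is an adjusted p under 0.05. Lists were described by counts and medians, with no test. The members, lists, motifs and tests were chosen with earlier results of these data known. CACGTT and AGGTCA were added to the motifs after the others. Named genes are Vipr2, called members, members added by smallest p until 10 stood in each direction, up to 3 members per list with an unadjusted p under 0.05, and Per1, Per2, Arntl, Nr1d1, Dbp, Vip, Avp, Fos and Tmem51; others named in the text were chosen after their values were seen, and a few genes that met the rule are not reported here. Of 93 genes named by the rule, 78 had a RefSeq promoter window.

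Other settings tried were a pseudocount of 0.5 or 10, testing unfiltered genes, requiring 50 in 3 libraries, other limits for members, the fit over members alone, TMM scaling, array weights, the replicate number as a block, the percentage of genes at 0 or the log2 rRNA-related share as covariate, edgeR 4.0.16 quasi-likelihood and DESeq2 1.42.0 on recovered reads, the libraries of 1 genotype alone, and leaving out each library. Added after the data were seen were a fit without the sparsest library (most genes at 0) of either Vipr2-/- group, and members alone with the percentage of genes at 0 as covariate. The fit was also run on simulated counts with known interactions placed in the Vipr2-/- SVE group. The simulation did not model the group differences in the share of genes at 0 or in the rRNA-related share. Its outcome is not reported here. Residuals of same-numbered libraries from different groups had correlations of -0.109 to 0.167 over 19 pairs, above 0.1 in 2. For 54 pairs with other numbers the correlations were -0.151 to 0.137, above 0.1 in 1. The residuals come from groups of 3 or 4 libraries, so they cannot decide whether the numbers mark a block.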

Additional observations from a re-analysis of the deposited data

Results flagged for a closer look

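Nr1d1 and Tmem51 stand here because their exercise effects differed between genotypes in the test of the difference itself, by -1.73 and -1.61 on the log2 scale; their values are given with the results.

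Within groups of 4 libraries, 12 of 182 tests found 1 library far from the others, measured as its gap to the nearest library divided by the whole range (limit 0.829). Chance flags about 1 in 20 such groups. In WT nSVE, library 2 was the high one for Fos (0.899), Prkar1b (0.915), Pcsk1n (0.904), Per1 (0.887) and Rab3a (0.851). Its Fos count was 8106, against 1326 in the next library. WT nSVE library 4 was high for Gnaz (0.835), library 1 for Aldoc (0.849) and library 3 for Avp (0.837). In WT SVE, library 4 was high for Grin2a (0.869) and Sik1 (0.864), library 3 was high for Arntl (0.862) and low for Mal (0.868). The interactions of Per1 and Fos are the ones whose sign turned when a library was left out; those of the other 10 did not. Groups of 3 libraries, which include both Vipr2-/- groups, were not examined this way.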

How the results depend on the processing

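The interaction count of 2 members, Tmem51 and Nr1d1, was also 2 under both pseudocounts, either filter, either other mean limit, the fit over members alone, TMM scaling, array weights, the rRNA-related share as covariate, edgeR, and without the sparsest Vipr2-/- libraries. It was 4 without the need for a read in all libraries, 3 with the percentage of genes at 0 as covariate (Sox13 added), 76 with DESeq2 (29 higher, 47 lower) and 0 to 17 without 1 library (0 without WT SVE library 1, 17 without Vipr2-/- SVE library 2). Among all tested genes DESeq2 called 173 (102 higher, 71 lower). With the replicate number as a block, the interaction count of members was 0, against 1 for SVE in Vipr2-/- and 128 for SVE in WT mice.

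The Vipr2-/- count of 6 was 2 with a pseudocount of 10, no filter, a filter of 50, members alone, the percentage of genes at 0 as covariate or edgeR, and 0 with array weights, the rRNA-related share, the libraries of that genotype alone, or members alone with the share of genes at 0. It was 11 without the need for a read in all libraries, 208 with DESeq2, and 2 to 88 without 1 library. The WT count of 217 was 132 with no filter, 1530 with array weights, 72 with the share of genes at 0, 3 with the rRNA-related share, 728 with DESeq2, 1104 with WT libraries alone, 692 without the sparsest Vipr2-/- libraries, 133 for members alone with the share of genes at 0, and 29 to 409 without 1 library. The cause of these shifts was not tested.

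Of 2604 recomputed gene values, 2556 kept direction and side of the threshold, 33 newly passed (26 of the 91 uncalled named genes under DESeq2), 4 no longer passed and 11 turned sign. The 26 included Gapdh, Gstm7, Crocc, Gpc3, Rgs16 and Cry1 (DESeq2 Wald test, adjusted p = 0.000597, 0.00129, 0.00232, 0.00432, 0.00475 and 0.0148). With 1 library left out the interaction ran from -0.11 to 0.25 for Vip, from -1.19 to 0.090 for Fos, from -0.69 to 0.019 for Vipr2 and from -0.51 to 0.010 for Per1; Fos was 0.48 with edgeR, 0.48 with DESeq2 and 0.13 without the sparsest Vipr2-/- libraries. With 3 Vipr2-/- libraries a group, a median standard error of 0.336 limits which differences could pass.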

Other observations

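Outside the members, 2 of the 18175 tested genes passed in the interaction, and both were listed at 0 in all 3 Vipr2-/- nSVE libraries; they were chosen after their values were seen. Kdr, which encodes the VEGF receptor VEGFR2 of endothelial cells, had 221, 133 and 213 normalized counts in Vipr2-/- SVE and 0 in each Vipr2-/- nSVE library, against 157, 114, 228 and 114 in WT SVE and 83.5, 92.8, 55.2 and 121 in WT nSVE (adjusted p = 0.0117). The predicted gene Gm1848 had 176, 128 and 214 in Vipr2-/- SVE and 0 in each Vipr2-/- nSVE library, against 164, 221, 114 and 103 in WT SVE and 145, 173, 124 and 129.8 in WT nSVE (adjusted p = 0.00512). With a group at 0 the fitted differences depend on the pseudocount, so none is given. The summed level of the 16 endothelial and mural markers was 8034 to 9472 in Vipr2-/- SVE, 7455 to 8925 in Vipr2-/- nSVE, 7340.0 to 8694 in WT SVE and 7721 to 9650 in WT nSVE, ranges that overlap in all 4 groups.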
